A study of Mus musculus with 24 samples.

Results

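The myeloid C-type lectin receptors followed here were the products of 9 genes, Clec4e, Clec4d, Clec4n, Clec7a, Clec5a, Clec12a, Clec4a1, Clec4a2 and Clec4a3, whose symbols were matched to the Ensembl identifiers of the full count table, 9 of 41388 genes. RNA from a portion of the heart was sequenced in 24 male Balb/c mice, of the substrain BALB/cAnNCrl in the study's methods, 4 with experimental autoimmune myocarditis (EAM) and 4 controls at each of D10, D15 and D21, that is 10, 15 and 21 days from the first immunization. EAM mice had received a cardiac myosin heavy chain peptide in complete Freund's adjuvant supplemented with heat-killed Mycobacterium tuberculosis, with pertussis toxin, and control mice had received PBS in place of the peptide with the same adjuvant and toxin. The controls therefore carried the mycobacterial adjuvant as well, and hearts without adjuvant were not analysed here. The mice were 8 to 10 weeks old at immunization, and EAM hearts were picked for sequencing as far as possible for inflammation. Total counts lay between 15814863 and 24980864 per heart, and 3 reads, the limit that a count of 0 allows, corresponded to 0.120 to 0.190 CPM (read counts scaled to a common library size with TMM factors). The 4 D21 EAM libraries carried a library code of their own, shared with none of the other 20, so at D21 the code, whose meaning the labels do not state, cannot be told apart from EAM. The summed level of 8 cardiomyocyte markers was between 7832 and 37621 CPM in every heart, with none of the 8 at 0.

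C-type lectin receptors of myeloid cells recognise sugars and lipids of microbes and products of damaged tissue. Mincle (Clec4e), MCL (Clec4d) and Dectin-2 (Clec4n) signal through the adaptor FcRγ (Fcer1g), MDL-1 (Clec5a) through DAP12 (Tyrobp), and Dectin-1 (Clec7a) through a motif in its own tail. All of these lead to the kinase Syk and, through Card9, Bcl10 and Malt1, to NF-kappaB. DCIR (Clec4a2) and MICL (Clec12a) carry inhibitory motifs that recruit phosphatases, and Clec4a1 and Clec4a3 are close relatives of DCIR. Mincle is the receptor for trehalose dimycolate of the mycobacterial cell wall, which is part of the adjuvant that both groups of mice received.

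All 9 genes lie on mouse chromosome 6 (GRCm38, GENCODE M21 annotation). A block of 368 kb at chr6:122921848-123289870 holds, in order, Clec4a1, Clec4a3, Clec4a2, Clec4n, Clec4d and Clec4e, and the 3′ ends of Clec4d and Clec4e face each other 6.52 kb apart. Clec12a and Clec7a lie together at chr6:129342691-129472779, and Clec5a lies apart at chr6:40574894-40585821. Clec7a is annotated as a polymorphic pseudogene in this release. Of the 75-base windows of Clec4a2, 3.24% also occur in Clec4a4 or Clec4b1, while 0% of the windows of the other 8 genes were shared with another gene, so the counts of Clec4a2 are less certain than those of the others. Clec4a2 also overlaps the predicted gene Gm44132 on the same strand.

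RefSeq promoters (GRCm38.p6) were found for 8 of the 9 genes, and not for Clec4n, with 10 windows in all since Clec4a3 and Clec7a have 2 starts each. The 250 bases before the transcription start are shown for 4 of them because they differ in what they hold and the genes differ in response, with matches to any of 5 searched motifs in capitals. The motifs, searched on both strands, were GAGGAA (the core bound by PU.1, the ETS-family factor of myeloid cells), TTGNGCAA (C/EBP), GGG and TTTCC with any 2 bases between them (NF-kappaB), TGANTCA (AP-1) and TTCNNNGAA (GAS, bound by STAT factors). The sequences run 5′ to 3′ toward the gene.
Clec4e, minus strand, chr6:123289872-123290121: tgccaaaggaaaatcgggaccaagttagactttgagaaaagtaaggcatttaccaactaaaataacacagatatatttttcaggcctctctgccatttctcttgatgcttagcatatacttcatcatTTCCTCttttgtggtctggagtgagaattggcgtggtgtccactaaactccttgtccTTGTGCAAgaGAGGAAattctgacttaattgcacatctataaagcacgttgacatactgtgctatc
Clec4d, plus strand, chr6:123261857-123262106: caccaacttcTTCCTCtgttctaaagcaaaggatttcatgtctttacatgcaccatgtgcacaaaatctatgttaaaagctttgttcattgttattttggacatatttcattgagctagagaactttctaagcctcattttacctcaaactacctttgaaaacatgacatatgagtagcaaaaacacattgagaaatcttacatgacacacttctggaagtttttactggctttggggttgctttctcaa
Clec12a, plus strand, chr6:129349994-129350243: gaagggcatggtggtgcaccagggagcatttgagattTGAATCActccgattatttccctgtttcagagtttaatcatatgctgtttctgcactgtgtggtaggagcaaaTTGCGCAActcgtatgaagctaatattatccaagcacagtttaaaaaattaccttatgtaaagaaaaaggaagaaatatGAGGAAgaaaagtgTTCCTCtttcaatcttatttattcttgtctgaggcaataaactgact
Clec4a2, plus strand, chr6:123122440-123122689: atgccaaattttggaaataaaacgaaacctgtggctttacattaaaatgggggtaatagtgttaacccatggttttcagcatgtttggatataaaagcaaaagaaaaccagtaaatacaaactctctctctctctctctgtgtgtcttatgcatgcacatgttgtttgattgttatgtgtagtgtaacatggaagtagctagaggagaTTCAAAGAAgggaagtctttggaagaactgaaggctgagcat

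The GAGGAA core was present in 8 of the 10 windows, all but that of Clec4a2 and 1 of the 2 of Clec4a3, and in 23.3% of 32851 promoters cut to the same length. In the Clec4e promoter it lay 56 to 51 bases before the start, next to a TTGTGCAA match 66 to 59 bases before it, and on the other strand at 123 to 118. In the Clec12a promoter a TTGCGCAA match lay at 140 to 133. The C/EBP letters occurred in 2.61% of all promoters, the AP-1 letters, seen in Clec12a, in 6.75%, and the GAS letters, seen in Clec4a2, in 7.02%. The NF-kappaB letters were in 1.41% of all promoters and in 0 of these 10 windows. These matches describe the letters only.

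In control hearts the genes were low. Per kilobase of exon, the mean over 12 control hearts was highest for Clec4a1, at 6.77 ± 2.31 CPM per kb (SD, n = 12), followed by Clec4a3 at 5.13 ± 1.91, Clec4n at 4.59 ± 2.20, Clec7a at 2.04 ± 0.691 and Clec4a2 at 1.91 ± 0.742. Clec5a at 1.11 ± 0.292, Clec12a at 1.01 ± 0.428 and Clec4d at 0.852 ± 0.571 came next, and Clec4e was lowest at 0.258 ± 0.210. Over these 12 hearts, pooled from all days, the ranges of each gene and the next in this order overlapped in every case. In the 4 D15 controls alone the order was the same, and Clec4a1, Clec4n, Clec4a2 and Clec4d each lay above the next gene without overlap. In D15 EAM hearts the order was another one. Clec4n led with 139 ± 36.1 and Clec7a followed with 105 ± 12.5 CPM per kb (SD, n = 4), and the lowest of these Clec7a values, 92.0, lay above the highest of Clec4d, 78.4. Clec4a1 came after Clec4d at 48.3 ± 11.3, and Clec4a2 was last at 15.5 ± 4.16, with its highest heart at 20.0 below the lowest of Clec5a at 22.1. Clec4e, at 24.04 ± 2.60, overlapped both Clec12a and Clec5a. By the longest transcript in place of all exons, Clec12a was at 42.7 ± 7.95 and Clec4e at 24.8 ± 2.68 in D15 EAM hearts. In the 12 controls Clec12a then ranked above Clec5a, at 1.73 ± 0.733 and 1.14 ± 0.299.

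**Figure D1:**
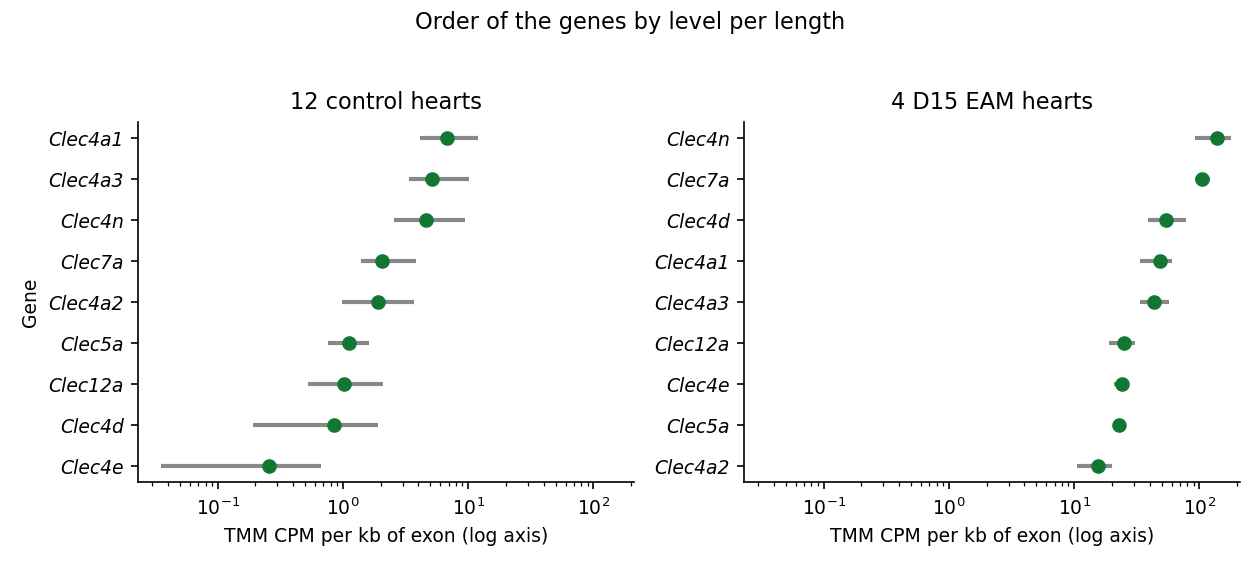
TMM CPM per kilobase of exon on a log axis for the 9 genes, ordered by mean, in the 12 control hearts (left) and the 4 D15 EAM hearts (right). Points are means and bars run from the lowest to the highest heart. Clec4a1 leads the controls at 6.77 and Clec4n leads the D15 EAM hearts at 139, and the bars of neighbours overlap throughout the left panel.

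The first question was how EAM changed these genes at each day. At D15, all 9 genes were induced, against 18.1% of the 15693 genes tested (quasi-likelihood test of edgeR, Benjamini-Hochberg adjusted p under 0.01 and a change of 2-fold or more). All 9 also had every EAM heart above every control heart at D15, which 34.5% of genes had. At D21, 8 of 9 were induced against 4.13% of 15266 genes, with all 9 free of overlap against 17.8% of genes. There limma-voom called 0 of 9, against 0.524% of genes, with a median log2 fold change of 3.46 beside 3.73 in edgeR. At D10, 0 of 9 were induced and 0% of 15029 genes were, and DESeq2, limma-voom and the likelihood ratio test of edgeR called 0 of 9 as well, against 0% to 0.319% of genes. All 9 genes passed the filter of at least 10 reads in at least 4 of the 8 hearts at each day, Clec4e at D15 and D21 and Clec4d at D21 with fewer than 4 control hearts at that count. The genes that rose most were the Syk-coupled receptors Clec4e, Clec4d and Clec7a, and those that rose least were the DCIR-type genes Clec4a1, Clec4a2 and Clec4a3.

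**Figure D2:**
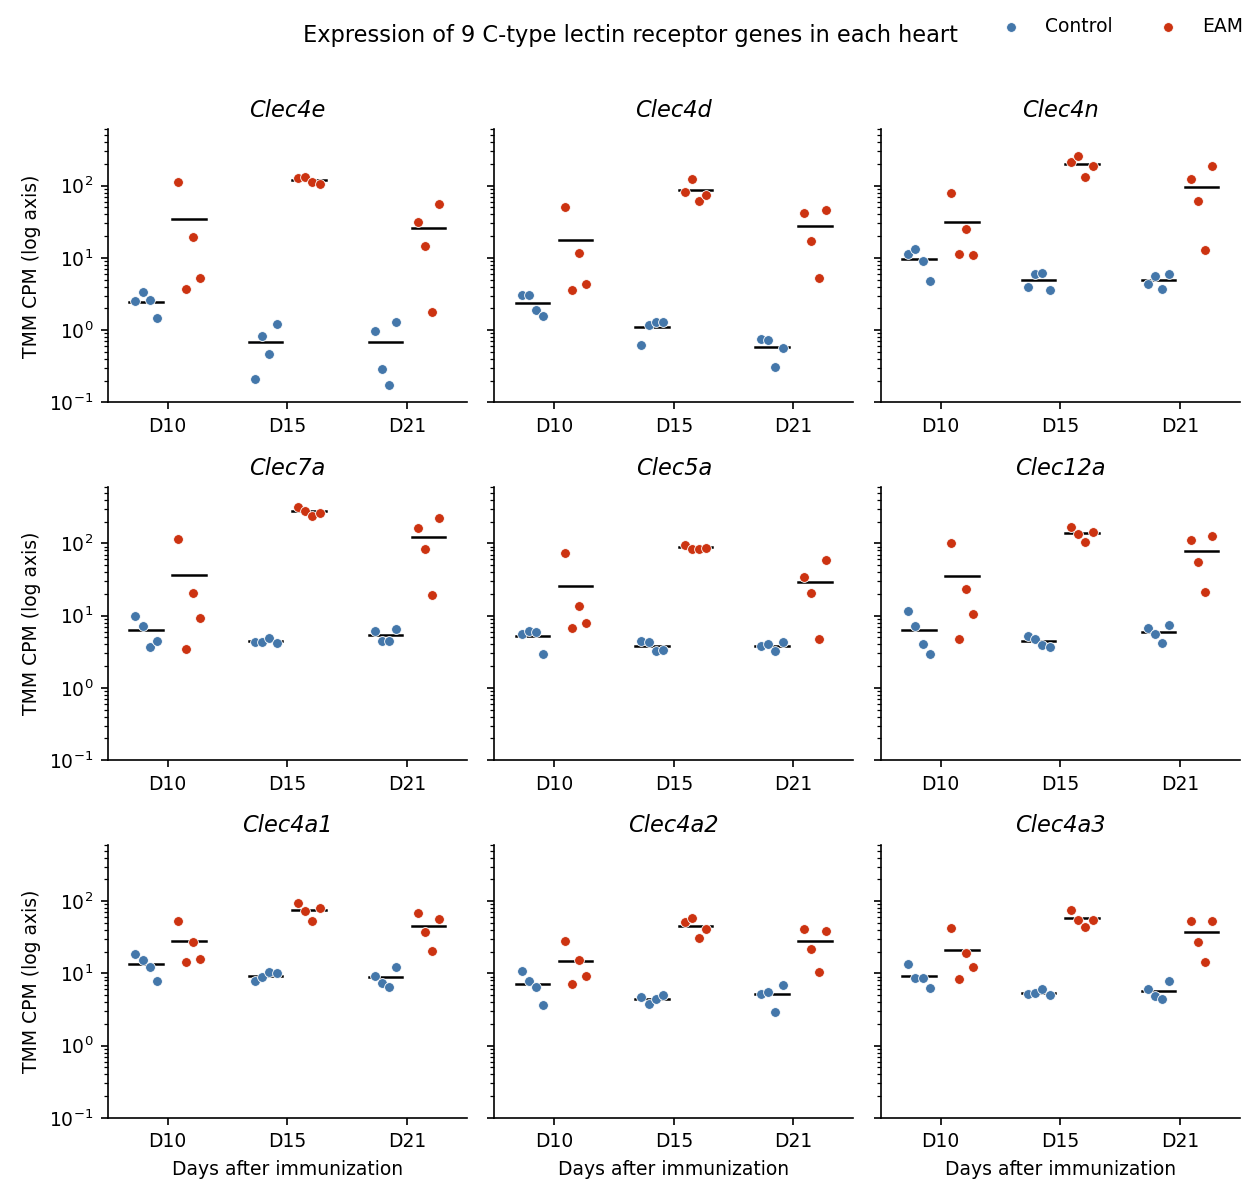
TMM CPM of each gene in each of the 24 hearts, on a log axis, by day; points are hearts (blue, control; red, EAM) and black lines are group means. At D15 all 4 EAM hearts lie above all 4 controls in every panel, at D10 EAM replicate 1 is the highest heart of its day, and at D21 EAM replicate 3 is the lowest EAM heart.

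Clec4e had the largest fold change of the 9 at D15. Its level was 0.208, 0.826, 0.466 and 1.24 CPM in D15 control replicates 1 to 4, or 4 to 21 reads, and 127, 132, 113 and 104 CPM in D15 EAM replicates 1 to 4. The groups lay far apart, and the EAM hearts were close to each other. The log2 fold change was 7.51 (SE 0.28, adjusted p = 4.2e-08, edgeR), a fold of 182, the 44th highest of 15693 genes. At D10 the control hearts held 2.51, 3.33, 2.64 and 1.45 CPM and the EAM hearts 111, 3.68, 19.4 and 5.33 CPM. Every D10 EAM heart was above every control, but replicate 1 stood far above the other EAM hearts, and the log2 fold change of 3.79 (SE 1.07) did not pass (adjusted p = 0.328, edgeR). At D21 the controls held 0.966, 0.288, 0.175 and 1.28 CPM and the EAM hearts 31.2, 14.6, 1.80 and 54.9 CPM. Replicate 3 of the EAM hearts was only just above the highest control, and the log2 fold change was 5.30 (SE 1.04, adjusted p = 0.0098, edgeR).

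Clec4d, whose product pairs with Mincle at the cell surface, rose less than Clec4e at D15 and, by the fitted value, slightly more at D21; the difference between the genes was not tested. At D15 it was at 0.625, 1.18, 1.29 and 1.30 CPM in the controls and at 82.5, 125, 62.1 and 74.4 CPM in the EAM hearts. The lowest EAM heart was far above the highest control, with a log2 fold change of 6.33 (SE 0.30, adjusted p = 1.8e-07, edgeR). At D21 the EAM hearts were at 41.9, 17.0, 5.34 and 46.0 CPM and the controls at 0.762, 0.720, 0.306 and 0.563 CPM. The log2 fold change of 5.59 (SE 0.75, adjusted p = 0.0047, edgeR) was the largest of the 9 genes at that day. At D10 the EAM hearts were at 51.3, 3.57, 11.9 and 4.38 CPM, and the controls were at 1.59 to 3.07 CPM.

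Clec4n, which encodes the mannan receptor Dectin-2, started from a higher level. Its controls at D15 were at 3.96, 6.08, 6.11 and 3.65 CPM and its EAM hearts at 215, 254, 132 and 188 CPM. The log2 fold change was 5.35 (SE 0.26, adjusted p = 2.2e-07, edgeR), with no overlap. At D21 the EAM hearts were at 124, 62.2, 13.0 and 184 CPM against 3.76 to 6.04 CPM, a log2 fold change of 4.32 (SE 0.73, adjusted p = 0.0069, edgeR). At D10 the EAM hearts were at 79.2, 11.2, 24.8 and 10.9 CPM against controls at 11.2, 13.4, 9.15 and 4.82 CPM, so the groups overlapped, with replicates 1 and 3 above all controls and replicates 2 and 4 among them.

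Clec7a encodes Dectin-1, the receptor for beta-glucans of fungal walls. At D15 its level was 4.27, 4.37, 4.97 and 4.12 CPM in the controls and 322, 278, 243 and 268 CPM in the EAM hearts, the highest CPM of any of the 9 genes. The spread within each group was small beside the log2 fold change of 6.0 (SE 0.12, adjusted p = 5.9e-09, edgeR). At D21 the EAM hearts ranged widely, at 165, 82.7, 19.3 and 228 CPM, and all lay above the controls at 4.42 to 6.45 CPM. The log2 fold change there was 4.57 (SE 0.70, adjusted p = 0.0058, edgeR). At D10 EAM replicate 2 was at 3.46 CPM, below all 4 controls (3.71 to 10.0 CPM), while replicates 1, 3 and 4 were at 115, 20.3 and 9.29 CPM.

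Clec5a encodes MDL-1, the receptor of this group that pairs with DAP12. At D15 the controls were at 4.43, 4.31, 3.21 and 3.30 CPM and the EAM hearts at 96.1, 85.0, 85.0 and 86.4 CPM. The EAM hearts were nearly level, and the log2 fold change was 4.57 (SE 0.11, adjusted p = 9.7e-09, edgeR). At D21 the EAM hearts were at 33.8, 20.4, 4.81 and 58.9 CPM and the controls at 3.81, 4.08, 3.19 and 4.25 CPM. EAM replicate 3 was barely above the highest control, and Clec5a was the member that did not pass at D21 (log2 fold change 2.98, SE 0.64, adjusted p = 0.0126, edgeR). At D10 its EAM hearts were at 73.9, 6.74, 13.8 and 7.97 CPM against 2.91 to 6.20 CPM, with no overlap.

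Clec12a encodes the inhibitory receptor MICL. At D15 it was at 5.16, 4.78, 3.99 and 3.65 CPM in the controls and at 168, 135, 105 and 143 CPM in the EAM hearts, with a log2 fold change of 5.01 (SE 0.18, adjusted p = 3.2e-08, edgeR). At D21 the EAM hearts were at 110, 54.6, 21.0 and 126 CPM against 4.20 to 7.53 CPM, a log2 fold change of 3.73 (SE 0.55, adjusted p = 0.0055, edgeR). This inhibitory receptor thus had a larger fold change than the activating Clec5a at both days, and the difference between these 2 genes was not tested. At D10 its EAM hearts were at 101, 4.76, 23.7 and 10.5 CPM and its controls at 11.5, 7.22, 3.99 and 2.91 CPM, and the groups overlapped.

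The DCIR-type genes rose least, and Clec4a1 and Clec4a3 among them had the highest control levels per kilobase. Clec4a3 was at 5.21, 5.37, 6.06 and 5.0 CPM in D15 controls and at 75.4, 55.3, 44.4 and 55.6 CPM in D15 EAM hearts, a log2 fold change of 3.45 (SE 0.17, adjusted p = 2.2e-07, edgeR). Clec4a2, which encodes DCIR itself, was at 3.72 to 5.0 CPM in the controls and 30.8 to 58.4 CPM in the EAM hearts, with a log2 fold change of 3.39. Clec4a1 was at 7.76 to 10.4 CPM and 52.5 to 94.6 CPM, with a log2 fold change of 3.06. None of these ranges overlapped between the groups. At D21 the log2 fold changes were 2.73 (SE 0.43) for Clec4a3, 2.48 (SE 0.46) for Clec4a2 and 2.41 (SE 0.39) for Clec4a1, with adjusted p of 0.0063, 0.0084 and 0.0064 by edgeR. At D10 they were 1.16, 1.04 and 1.03, and the groups overlapped for all 3.

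**Figure D3:**
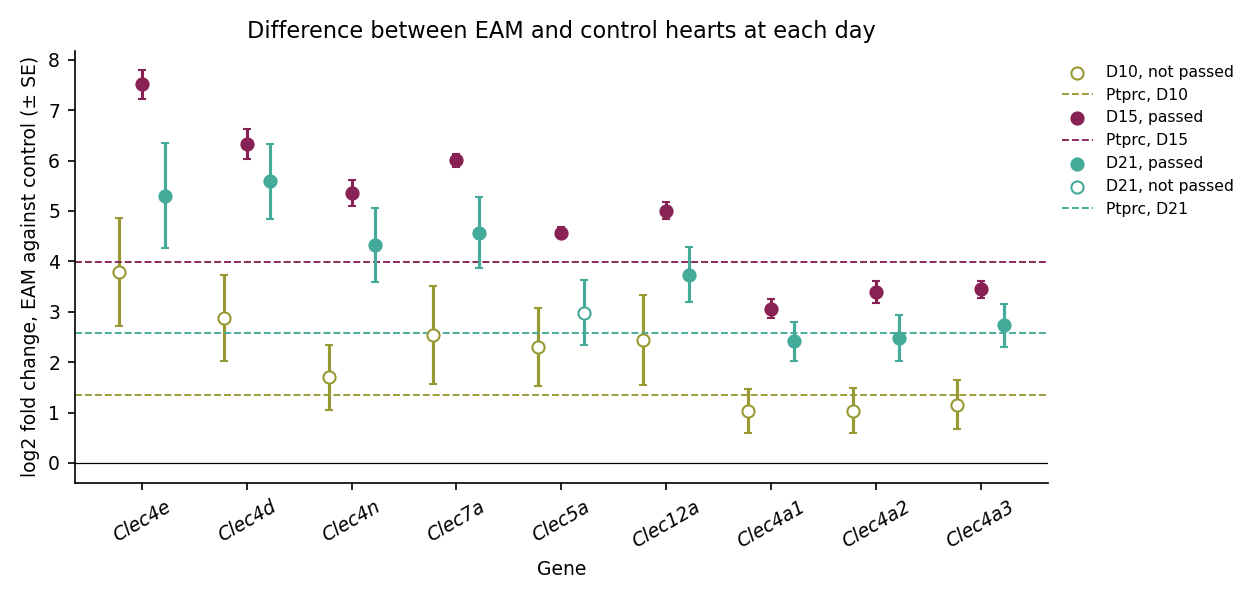
Fitted log2 fold change of EAM against control hearts with its standard error for each gene at D10, D15 and D21; filled points passed both limits, open points did not, and dashed lines give the fold change of Ptprc at each day. At D15 the values run from 3.06 for Clec4a1 to 7.51 for Clec4e, with Ptprc at 3.98 and the 3 Clec4a genes below it.

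D10 was carried mainly by a single heart. At an unadjusted p under 0.05, all 9 genes were higher in D10 EAM hearts, as were 9.71% of all genes, while limma-voom had 0 of 9 at that limit and 5.78% of all genes. Of the 9, 3 (Clec4d, Clec4e and Clec5a) had no overlap between the groups, as did 4.41% of genes. EAM replicate 1 was the highest heart of its group for every member, with Ptprc (CD45, the common leucocyte antigen) at 194 CPM against 27.7, 56.7 and 41.6 CPM in replicates 2 to 4, while the controls were at 23.9 to 38.6 CPM. The paper reports no D10 EAM mouse with raised myocardial CD45+ cells by flow cytometry, and none with raised cardiac troponin I. Those are measures of cells and protein, while Ptprc here is RNA. Without EAM replicate 1 the median log2 fold change of the 9 genes went from 2.30 to 0.78, that of Clec4e from 3.79 to 1.90 and that of Clec7a from 2.54 to 0.78. When all 12 control hearts served as controls, all 9 genes passed at D10, against 4.07% of 15545 genes, with log2 fold changes from 1.43 for Clec4a1 to 4.83 for Clec4e.

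D10 EAM replicate 1 did not stand at the same distance from D15 for all members. Its Clec4e level was 93.2% of the D15 EAM mean and its Clec4a1 level 71.5%, and both lay inside the range of the D15 EAM hearts. The other 7 genes lay below the lowest D15 EAM heart, as did Ptprc at 70.1%. Of these, Clec5a was at 83.9%, Clec4a3 at 74.5%, Clec12a at 73.1%, Clec4a2 at 61.5%, Clec4d at 59.6%, Clec7a at 41.5% and Clec4n at 40.2%. These shares describe a single heart and were not tested.

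The EAM effect was compared between days in a fit of all 24 hearts. From D10 to D15 it rose past both limits for 4 of 9 genes, against 5.38% of 16318 genes, and 9 of 9 were higher at an unadjusted p under 0.05, against 24% of genes. The rise was 3.61 (SE 0.89, adjusted p = 0.0039, edgeR) for Clec4n on the log2 scale, 2.30 (SE 0.60, adjusted p = 0.0054) for Clec4a2, 2.24 (SE 0.59, adjusted p = 0.0056) for Clec4a3 and 1.99 (SE 0.54, adjusted p = 0.0069) for Clec4a1. Clec4e had the largest estimate, 3.66, with an SE of 1.42 and an adjusted p of 0.0397 (edgeR), and Clec4d at 3.40, Clec7a at 3.42, Clec12a at 2.53 and Clec5a at 2.22 had adjusted p between 0.0128 and 0.0481. All 9 passed with the replicate block, against 7.89% of genes. Without D10 EAM replicate 1, all 9 passed, against 12.3% of genes, and without any 1 of the other D10 or D15 hearts between 1 and 4 did, against 2.98% to 6.29% of genes.

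From D15 to D21, 0 of 9 genes fell past both limits, against 0.919% of all genes, and 0 were lower at an unadjusted p under 0.05, against 17.3% of genes. With the replicate number as a block, 5 of 9 were lower at that limit, against 20.9% of genes, and 0 of 9 fell past both limits. The estimates were all below 0, from -0.64 for Clec4a1 to -2.19 for Clec4e (SE 1.63, adjusted p = 0.313, edgeR). From D10 to D21 the effect rose past both limits for 0 of 9, against 0.0735% of genes, and 5 of 9 were higher at an unadjusted p under 0.05, against 8.52% of genes (8 of 9 against 9.97% with the block). Without D10 EAM replicate 1 it rose past both limits for 3 of 9 (Clec4d, Clec4n and Clec7a), against 0.528% of genes. DESeq2, limma-voom and the edgeR likelihood ratio test also called 0 of 9 for both of these comparisons, against 0.919% to 1.54% of genes for D15 to D21 and 0.0245% to 0.503% for D10 to D21.

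The spread among D21 EAM hearts was wide and was shared by the genes. The order of the 4 hearts was replicate 4, 1, 2 and 3 for 7 of 9 genes and for Ptprc, which was at 149, 96.3, 48.9 and 228 CPM in replicates 1, 2, 3 and 4, and Clec4a1 and Clec4a2 were highest in replicate 1. Relative to the D15 EAM mean, the D21 EAM hearts averaged 21.5% ± 19.2 (SD, n = 4) for Clec4e, 32.0% ± 22.8 for Clec4d, 33.4% ± 26.0 for Clec5a, 44.6% ± 33.0 for Clec7a, 48.6% ± 37.8 for Clec4n and 56.3% ± 35.2 for Clec12a. Clec4a1, Clec4a2 and Clec4a3 averaged 60.9% ± 28.4, 61.8% ± 32.6 and 64.7% ± 34.2, and Ptprc 47.3% ± 27.9. The ranges over hearts overlapped between all of these genes, and the order was not tested. The number of genes called at D21 changed when a heart was left out. Without any 1 of the 4 D21 controls it was 0 of 9, as it was for all genes, and without EAM replicate 1 or 2 it was 0 of 9, against 0.0265% and 0.053% of genes. In these 6 fits the median log2 fold change of the 9 genes was 3.54 to 3.89, beside 3.73 with all hearts, and their adjusted p lay between 0.0119 and 0.0452 (edgeR). Without EAM replicate 3 there were 9, against 9.78% of genes, and without EAM replicate 4 there were 6, against 1.98%. With the replicate number as a block, 8 genes passed, against 3.94% of genes.

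Since EAM brings leucocytes into the heart, each gene was also set against Ptprc in the same heart, as log2(CPM + 1) of the gene minus log2(CPM + 1) of Ptprc. In bulk tissue fewer cells of a type and less RNA per cell cannot be told apart. At D15, 5 genes lay higher relative to Ptprc in all EAM hearts than in any control, against 0.529% of 15692 genes, and 3 lay lower, against 97.7%. The 5 were Clec4e, at -1.20 ± 0.24 in EAM and -3.53 ± 0.31 in control hearts (SD, n = 4 each), Clec7a at 0.01 ± 0.12 and -1.80 ± 0.19, Clec4d at -1.71 ± 0.46 and -3.19 ± 0.21, Clec4n at -0.52 ± 0.37 and -1.70 ± 0.42, and Clec12a at -1.01 ± 0.15 and -1.82 ± 0.32. Clec7a thus reached the CPM of Ptprc itself in D15 EAM hearts. The 3 that lay lower were Clec4a1, at -1.89 ± 0.22 in EAM and -0.89 ± 0.14 in control hearts, Clec4a2 at -2.61 ± 0.38 and -1.80 ± 0.11, and Clec4a3 at -2.26 ± 0.20 and -1.56 ± 0.20. Clec5a, at -1.63 ± 0.12 and -1.98 ± 0.31, overlapped, but lay above the controls in all EAM hearts with a pseudocount of 0.25.

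At D21 only Clec4d, Clec7a and Clec12a stayed above the controls relative to Ptprc in every heart, against 0.314% of genes, and 0 of 9 lay below in every heart, against 94.5%. Clec4e had 3 EAM hearts above the controls and replicate 3 below them, or among them at -4.58 against -5.17 to -4.28 with a pseudocount of 0.25, with means of -2.76 ± 0.96 and -3.81 ± 0.08 in EAM and control hearts. At D10, Clec4e and Clec4d lay above the controls in every EAM heart, against 0.24% of genes, and 0 of 9 lay below, against 1.87%. Against the mean of 10 monocyte and macrophage markers in place of Ptprc, 6 genes were higher without overlap at D15 (the same 5 and Clec5a), against 1.17% of genes, and Clec4a1 was lower, against 96.8%. Clec4a2 and Clec4a3 then differed between groups by -0.24 and -0.12, values within the spread of their hearts. At D10, Clec4d and Clec4e were higher without overlap against these markers, against 0.127% of genes, and 0 of 9 were lower, against 2.3%. At D21, 5 genes were higher without overlap by the same measure (Clec4d, Clec4n, Clec7a, Clec12a and Clec4a3), against 0.918% of genes, and 0 were lower, against 92.3%. Clec4a3 was higher there by 0.32, and relative to Ptprc it differed between groups by -0.70 at D15 and 0.01 at D21. These relative levels were not tested.

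**Figure D4:**
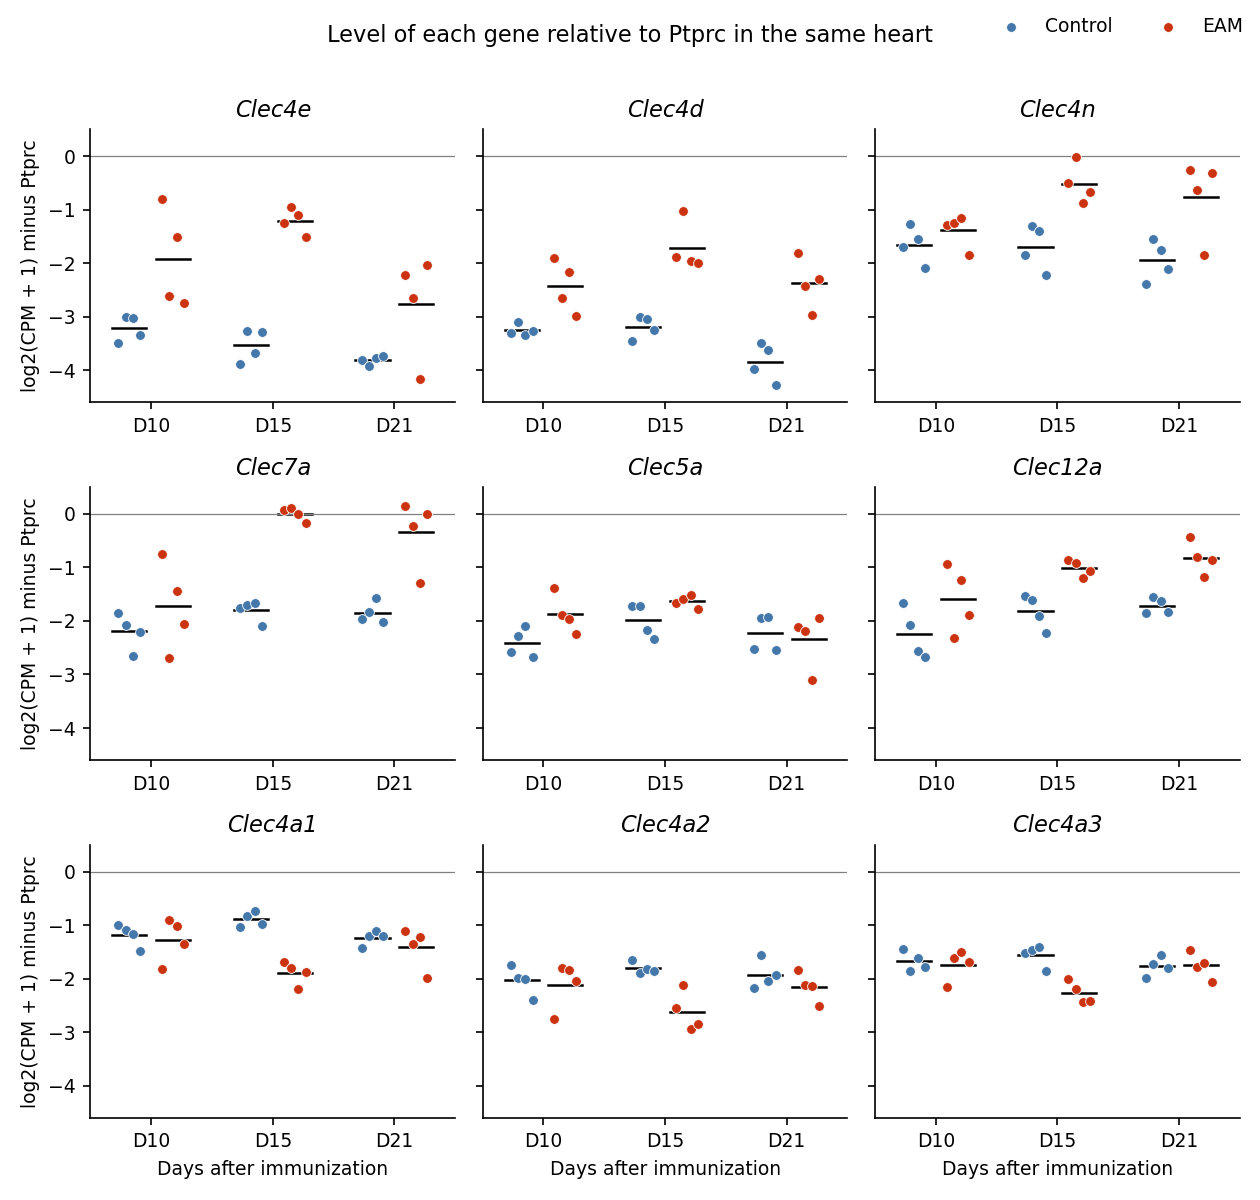
log2(CPM + 1) of each gene minus log2(CPM + 1) of Ptprc in the same heart, by day; points are hearts (blue, control; red, EAM), black lines are group means and the grey line at 0 is the level of Ptprc. At D15 the EAM hearts lie above the controls for Clec4e, Clec4d, Clec4n, Clec7a and Clec12a and below them for Clec4a1, Clec4a2 and Clec4a3.

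The balance of Clec4e to Clec7a in each heart, a ratio chosen after the values were seen, differed between the days. Of the 36 pairs of the 9 genes, this ratio and that of Clec5a to Clec7a were the 2 whose EAM hearts did not overlap between any of the 3 days. The ratio of Clec4e to Clec5a had medians of 1.04, 1.33 and 0.821 in EAM hearts at D10, D15 and D21, and D10 overlapped both other days. That of Clec4e to Clec4d was 1.03 to 2.17, 1.06 to 1.83 and 0.337 to 1.19, with all 3 days overlapping. In EAM hearts the ratio of Clec4e to Clec7a was 0.964, 1.07, 0.953 and 0.574 at D10, 0.396, 0.475, 0.467 and 0.389 at D15, and 0.189, 0.177, 0.0934 and 0.241 at D21. D10 EAM replicates 1 and 2 had almost the same ratio although their Clec4e levels were 111 and 3.68 CPM. In control hearts, with fewer reads behind each value, it was 0.25 to 0.712 at D10, 0.0488 to 0.30 at D15 and 0.0396 to 0.198 at D21. The EAM hearts lay above the controls at D15 without overlap and overlapped with them at D10 and D21. The D21 EAM hearts also carry the other library code, which cannot be told apart from the day among EAM hearts.

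**Figure D5:**
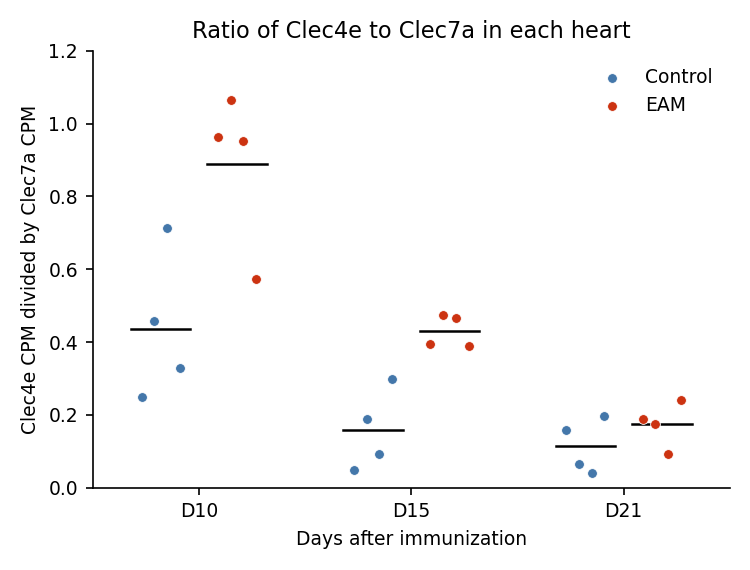
CPM of Clec4e divided by CPM of Clec7a in each heart, by day; points are hearts (blue, control; red, EAM) and black lines are group means. EAM hearts run from 0.574 to 1.07 at D10, from 0.389 to 0.475 at D15 and from 0.0934 to 0.241 at D21.

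Control hearts of the 3 days were compared to see how the genes behaved after adjuvant and toxin alone. Clec4d, at 3.03, 3.07, 1.91 and 1.59 CPM at D10 and 0.306 to 0.762 CPM at D21, fell by 2.04 on the log2 scale (SE 0.32, adjusted p = 0.0038, edgeR). It was the 1 gene of 9 that fell from D10 to D21, against 0.353% of 15311 genes. Without D10 control replicate 2 or 3 or D21 control replicate 3 it did not pass, with log2 changes of -1.89, -2.14 and -1.81 and adjusted p of 0.0140, 0.0111 and 0.0151 (edgeR). At an unadjusted p under 0.05, 6 of 9 were lower at D21 than at D10, against 13.3% of genes, and 6 of 9 lower at D15 than at D10, against 8.37%. Clec4e was at 1.45 to 3.33 CPM at D10, 0.208 to 1.24 CPM at D15 and 0.175 to 1.28 CPM at D21, with log2 changes of -1.88 and -1.91 that did not pass (adjusted p = 0.0766 and 0.0284, edgeR). From D10 to D15, 0 of 9 passed both limits, against 0.0718% of genes, and 0 of 9 did with the other 3 tests, against 0% to 0.627%. Mincle and MCL are also known from neutrophils. The summed level of 10 neutrophil markers was 140 to 268 CPM in D10 controls, 19.9 to 92.2 CPM in D15 controls and 12.8 to 116 CPM in D21 controls, with none of the 10 at 0. That of 10 monocyte and macrophage markers was 469 to 1068 CPM, 465 to 520 CPM and 407 to 655 CPM in the same order, and 6 of the 10 were lower at D15 and 7 at D21 than at D10 at an unadjusted p under 0.05. The log2 change of Ptprc was -0.79 at D15 and -0.48 at D21 (adjusted p = 0.0543 and 0.113, edgeR). The part of these cells in the values was not tested. Clec7a and Clec12a, with log2 changes of -0.25 and -0.10 from D10 to D21, had adjusted p of 0.551 and 0.867 (edgeR).

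The partners of the receptors moved in the same comparisons. Shares of all genes induced, 18.1% at D15 and 4.13% at D21, stand behind the counts of the lists that follow. The adaptors Fcer1g and Tyrobp were induced at D15 and at D21, as was Hcst, which had no control heart at 10 reads at either day and so entered the test only through the EAM hearts. Fcer1g had a log2 fold change of 3.30 at D15 and 2.45 at D21, Tyrobp 3.57 and 2.70, and Hcst, which encodes DAP10, 4.40 and 3.69. With the replicate block, Hcst did not pass at D21 (3.47, adjusted p = 0.0111, edgeR). Of 14 kinase and CARD9-arm genes, 10 were induced at D15 and 6 at D21 (4 with the replicate block), with 0 repressed at either day. Syk itself rose by 2.26 (SE 0.10, adjusted p = 1.2e-07, edgeR) at D15 and 1.33 at D21 (adjusted p = 0.0080, edgeR; 0.0111 with the block). The Src-family kinase Fgr rose by 5.70 at D15. Card9 rose by 3.11 and Malt1 by 2.44 at D15, while Bcl10 at 0.93, Trim62 at 0.80, Traf6 at 0.80 and Map3k7 at -0.30 did not reach a 2-fold change. At D21 Card9 was at 2.05 (adjusted p = 0.0107, edgeR). The phosphatase genes Ptpn6 (SHP-1) and Inpp5d (SHIP-1), which act downstream of inhibitory motifs, rose by 3.90 and 2.68 at D15, and Ptpn11 (SHP-2) was at -0.78. Of the 12 cytokine and enzyme genes that these receptors are known to induce, 9 could be tested at D15, 4 of them with no control heart at 10 reads, so that they entered only through the EAM hearts and the filter fixed their direction. The other 5 were induced as well, among them Il1b at 5.95. At D21, 6 could be tested and 1, Il1b at 4.04 (adjusted p = 0.0072, edgeR), was induced. Of 5 protein ligands, Anxa1 and Vim rose at D15, by 2.02 and 1.45, and Sap130, which encodes a nuclear protein bound by Mincle, was at 0.26.

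Other C-type lectin genes were counted in the same comparisons. Of 22 other C-type lectin genes, 16 could be tested at D15, 4 of them with fewer than 4 control hearts at 10 reads and Olr1, among these, with none. Of the 16, 6 were induced and 0 repressed, with a median log2 fold change of 0.88 beside 5.01 for the 9 receptors and 0.02 for all genes. The 6 were Olr1 (the oxidised LDL receptor LOX-1) at 6.63, Ly75 (DEC-205) at 2.86, Clec10a at 2.10, Clec1b (the podoplanin receptor CLEC-2) at 2.06, Cd302 at 2.01 and Mrc1 (the mannose receptor) at 1.54. The endothelial Clec14a was at -0.46 and Clec1a at -0.74. At D21, 3 of 16 were induced, Olr1, again with no control heart at 10 reads, at 5.40, Cd209a at 1.91 and Clec10a at 1.62, with Cd302 as a 4th under the replicate block, and the median was 0.65 beside 3.73 for the 9 receptors.

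Summed markers of the cell types that carry these receptors were higher in D15 EAM hearts than in D15 controls, though not every marker was induced. The summed level of 10 monocyte and macrophage markers was 3454 to 4748 CPM in D15 EAM hearts and 465 to 520 CPM in D15 controls, and all 10 were induced. That of 10 neutrophil markers was 622 to 1137 CPM and 19.9 to 92.2 CPM, again with all 10 induced, of which 7 had all 4 controls at 10 reads and 1, Mpo, had none. That of 7 dendritic cell markers was 98.3 to 193 CPM and 28.3 to 34.1 CPM, with 4 induced, of which Flt3 and Ccr7 had no control heart at 10 reads. At D21 the macrophage sum was 1190 to 4092 CPM in EAM hearts and the neutrophil sum 127 to 442 CPM, with 5 of 10 and 1 of 10 induced (7 and 3 with the replicate block), and 5 of the 10 neutrophil markers had fewer than 4 controls at 10 reads. None of these markers was at 0 in a whole group. In D15 EAM hearts the summed cardiomyocyte markers were at 7832 to 20427 CPM against 30043 to 35117 CPM in controls, with 5 of 8 repressed, against 12.9% of all genes. The summed level of 9 lymphocyte markers was lower throughout, at 38.8 to 59.0 CPM in D15 EAM hearts and 2.30 to 5.08 CPM in D15 controls, and at 17.1 to 57.7 CPM and 3.41 to 4.51 CPM at D21. Of these 9, 6 were induced at D15 and 6 at D21 (4 with the replicate block), and all 8 that could be tested at D15 had fewer than 4 control hearts at 10 reads. The part of any of these cell types in the levels of the 9 receptors was not tested.

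Likeness of pattern was measured as Pearson's r of the deviations of log2(CPM + 1) from the 6 group means, over 24 hearts, as a description with no test. The genes set against each other in a heart share its library, its depth and its leucocyte content. Among the 9 genes, the 36 pairs had r between 0.85 and 0.98 with a median of 0.92, highest for Clec7a with Clec12a and lowest for Clec4a2 with Clec5a. Outside the 9, the 2 most alike of 14217 genes had r between 0.97 and 0.99 for each member. For Clec4e they were Ncf1, which encodes the p47phox subunit of the phagocyte oxidase (0.98), and Csf2rb, a shared chain of cytokine receptors (0.98). For Clec12a they were Cybb, the catalytic oxidase subunit, and Myo1f, for Clec7a Napsa and Slamf8, for Clec5a Ctsc (cathepsin C) and Bcl2a1a, for Clec4d Emb and Ifi30, and for Clec4n Cfp (properdin) and Hp (haptoglobin). For the DCIR-type genes they were the macrophage markers Adgre1 (F4/80) for Clec4a1, with Lat2, and Lyz2 (lysozyme) for Clec4a2, with Pid1, and Sash3 and Otulinl for Clec4a3. Without D10 EAM replicate 1 the first of each pair remained the most alike.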

How the data were processed

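RNA from 24 hearts was sequenced as 75-base read pairs. The authors aligned reads to GRCm38 with HISAT2 2.0.4, removed duplicates with Picard and deposited raw counts per Ensembl gene from featureCounts. Strand use in counting is not given in the sources. The 92 spike-in rows held 0 reads and were left out. Groups and replicate numbers came from the sample labels, which do not say what a number marks, so p-values measure the spread between these hearts.

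In R 4.3.3 with edgeR 4.0.16, genes reaching 10 reads in 4 or more of the compared hearts were kept, scaled by TMM and tested with the quasi-likelihood test. Each SE of a log2 fold change was derived as its absolute value divided by the square root of the F statistic. Induced or repressed means a Benjamini-Hochberg adjusted p under 0.01 with a change of 2-fold or more. Each day was fitted on its 8 hearts, differences between days on all 24, and control hearts on their 12. Alternatives were limma-voom (limma 3.58.1), DESeq2 1.42.0, the edgeR likelihood ratio test, other scalings, filters and control sets, a replicate block, and leaving out each library. The script was tested on simulated data, where it recovered 92.3% of 194 genes changed 4-fold at D15, 88.8% of 196 at D21, 85.6% of 195 at D10 and 77.2% of 197 for the difference D10 to D15. Tables and plots used Python 3.11.15, pandas 2.3.3, numpy 2.4.6 and matplotlib 3.10.9. Same-numbered hearts deviated together (correlation over 0.1) in 4 of 4 pairs at D21, 2 of 4 at D10 and 0 of 4 at D15. The correlations were 0.101 to 0.307 at D21 and -0.093 to 0.407 at D10. Whether the numbers mark pairs is not known beyond these correlations. The main fits used no pairing, and the replicate block was run as an alternative for each comparison.

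The 9 genes, the other gene lists and the genes named were chosen with earlier results of these data known. All members and the 2 genes most alike each, among genes averaging 1 CPM or more, are named, and list genes by their role. A gene of the kinase list is counted but not reported by itself here. Per-length levels use the union of exons in GENCODE M21 unless the longest transcript is named, and log values a pseudocount of 1.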

Additional observations from a re-analysis of the deposited data

Results flagged for a closer look

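Of 54 groups of 4 hearts (9 genes in 6 groups), 5 had a heart far from the other 3 by Dixon's criterion at the 95% level, which chance alone gives for about 1 in 20 groups. In D10 EAM hearts, replicate 1 stood apart for Clec4e at 111 CPM, for Clec5a at 73.9 CPM and for Clec7a at 115 CPM. In D10 controls, Clec5a was low in replicate 4 at 2.91 CPM. In D15 EAM hearts, Clec5a was high in replicate 1 at 96.1 CPM, above 3 hearts at 85.0 to 86.4 CPM.

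The EAM effect differed between D10 and D15 past both limits (edgeR, fit of all 24 hearts) for Clec4n, by 3.61 on the log2 scale, Clec4a2, by 2.30, Clec4a3, by 2.24, and Clec4a1, by 1.99.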

How the results depend on the processing

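At D15, 9 of 9 genes were induced under every alternative run. At D10 the count was 0 except with all 12 control hearts, where it was 9. At D21 it was 8, 0 by limma-voom, and between 0 and 9 with a library left out. DESeq2 and the edgeR likelihood ratio test gave 9 at D21. For the difference D10 to D15 it was 4, 1 by limma-voom, 9 with the replicate block, and between 1 and 9 with a library left out. DESeq2 and the edgeR likelihood ratio test gave 6 for this difference. For D10 to D21 it was 0, and between 0 and 3 with a library left out. For control hearts D21 against D10 it was 1, 2 by the edgeR likelihood ratio test and by DESeq2, 0 with at least 30 reads in at least 4 samples, where Clec4d and Clec4e were not tested, and between 0 and 2 with a library left out. The log2 change of Clec12a there was -0.10, 0.020 by limma-voom and between -0.34 and 0.33 with a library left out (0.33 without D10 control replicate 1 and 0.035 without D21 control replicate 3). That of Clec7a was -0.25, and between -0.44 and 0.048 with a library left out (0.048 without D10 control replicate 1). The cause was not tested. At D21 the block moved the neutrophil markers induced from 1 to 3 of 10, and it moved the genes of the 9 past an unadjusted p of 0.05 from 0 to 5 for D15 to D21 and from 5 to 8 for D10 to D21. Besides these and the 4 to 9 genes for D10 to D15, it changed no count of calls given for the 9 genes by over 1.5 times. Total counts in place of TMM moved the median log2 fold change of all genes at D15 from 0.02 to 0.17 and left the direction of all 9 genes. A pseudocount of 0.25 changed the sign of 1 of 54 relative levels, that of Clec5a to Ptprc at D21, and moved 7 others, of Clec4d, Clec4e and Clec7a, further above the controls by more than the spread between hearts. Without D10 EAM replicate 1, 10 of 18 likeness values moved by more than their standard error. Clec4e and Clec4d in control hearts rest on 4 to 65 reads, which limits the precision of their folds.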
